A study of Mus musculus with 4 samples.

Results

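The genes described here carry the signal of the T-cell receptor (TCR) from the cell surface to the transcription factors NFAT and NF-kB. A list of 47 genes was given by symbol, and each was found by its Ensembl identifier among the 47729 rows of a table of read counts. RNA had been sequenced from 4 libraries of sorted regulatory T (Treg) cells of adult female C57BL/6 mice, with 2 libraries for each genotype. The WT libraries are from animals with the genotype Tfrc +/+ Foxp3 YFP-Cre/+. The libraries labelled TfR1 cko, called TfR1-deficient or TfR1-deficient-labelled here, are from animals with the genotype Tfrc fl/fl Foxp3 YFP-Cre/+. All of these mice carried 1 Foxp3 allele that makes YFP and Cre, so the groups shared the Cre and differed in the floxed alleles of Tfrc, which encodes the transferrin receptor TfR1. Cre is made only in cells that express Foxp3 from that allele, and in heterozygous females X inactivation leaves other Treg cells without it, so CD25+YFP+ cells were sorted. The sample labels name the spleen, while a legend of the study names spleens and lymph nodes. Whether a library came from 1 animal or from a pool is not stated, so the p-values measure only the spread between these libraries.

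As background, a TCR that binds its peptide signals through the CD3 chains, whose cytoplasmic tails are phosphorylated by the kinase Lck and then bind the kinase Zap70. Zap70 phosphorylates the adaptors Lat and Slp-76, on which Plcg1 is activated. Plcg1 makes inositol trisphosphate, which releases calcium and activates calcineurin and NFAT, and diacylglycerol, which activates Rasgrp1 and protein kinase C-theta. The latter acts through Bcl10 and Malt1 to activate the IkB kinase, so that NF-kB dimers enter the nucleus. Phosphatases, ubiquitin ligases and inhibitory adaptors limit the signal at each step. In Treg cells, TCR signals are needed for suppressive function and for the effector state, and the NF-kB subunit c-Rel is needed for Treg development.

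The libraries held 10841939 to 17278448 counts. Levels are given as CPM, the usual scaling of counts to library size, here with TMM factors, which are trimmed means of gene ratios. Tfrc itself was at 50.8 and 54.1 CPM in WT and at 56.1 and 48.3 CPM in the TfR1-deficient-labelled libraries (log2 fold change -0.01, standard error 0.16), so its reads, counted over all exons together, overlapped between the genotypes and each direction below rests on the labels. The 6 Treg markers, of which Cd3e and Cd4 are also among the 47 genes, summed to 4118 and 3761 CPM in WT and to 3206 and 2851 CPM in the others. All but Ikzf2 were lower without overlap, against 18.9% of all genes tested. Il2ra was lower by only -0.22 on the log2 scale (standard error 0.17). Ctla4, an inhibitory receptor of Treg cells, had the largest difference of these (log2 fold change -0.81, standard error 0.13, unadjusted p = 0.0014, edgeR), and Foxp3 was at 194 and 130.3 CPM in WT and at 122 and 114 CPM in the TfR1-deficient-labelled libraries. The summed level of 16 macrophage markers reached 1224 CPM for WT replicate 1 and 3603 CPM for TfR1-deficient replicate 2, against 99.7 CPM for WT replicate 2 and 71.9 CPM for TfR1-deficient replicate 1. Macrophage markers therefore stood apart within each genotype, and each of them overlapped between the genotypes. They were not balanced between the genotypes, however. The log2 fold changes of all 16 were above 0, from 0.57 for Axl to 2.13 for Spic, with standard errors from 1.14 to 2.35. B cell markers summed to 32.0 to 44.2 CPM, most of it Cd79b. The CD8 T cell and NK cell markers summed to at most 12.6 and 11.2 CPM and the erythroid markers found to 16.9 to 277 CPM, highest in TfR1-deficient replicate 2. The part of these markers, those of Treg cells included, in the results was not tested.

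Several genes at the end of this pathway are themselves known targets of NF-kB, and the promoters that hold a kB motif are shown so that the values of these genes can be read beside them. RefSeq promoters of GRCm38.p6, 250 bases before to 50 bases after each annotated start, were found for 39 of the 47 genes and not for Cd4, Malt1, Nfatc1, Ppp3ca, Sla, Cd6, Ikbkb and Nfkb1. They were searched on both strands for a 10-base kB motif, GGG followed by any 2 bases and then TTTCC. It was present for 4 genes, Nfkb2, Nfkbia, Rel and Tnfaip3, which is 10.3% of the 39 genes, against 1.89% of the 27025 genes with a promoter in the table. All 4 belong to the NF-kB end of the pathway. The 100 bases just before the start are printed 5′ to 3′ on the strand of the gene, with the match in capitals. In Nfkbia, Tnfaip3 and Rel the match is to the reverse complement of the motif.
Nfkbia (chr12:55492648-55492747, minus strand): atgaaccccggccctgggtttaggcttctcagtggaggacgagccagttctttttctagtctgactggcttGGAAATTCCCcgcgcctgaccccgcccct
Tnfaip3 (chr10:19015411-19015510, minus strand, 1 of its 2 starts): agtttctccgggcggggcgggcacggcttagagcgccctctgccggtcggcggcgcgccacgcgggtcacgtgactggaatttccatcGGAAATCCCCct
Rel (chr11:23770970-23771069, minus strand): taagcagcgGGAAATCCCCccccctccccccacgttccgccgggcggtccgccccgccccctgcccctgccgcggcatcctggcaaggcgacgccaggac
Nfkb2 (chr19:46304637-46304736, plus strand, the first of its 3 starts): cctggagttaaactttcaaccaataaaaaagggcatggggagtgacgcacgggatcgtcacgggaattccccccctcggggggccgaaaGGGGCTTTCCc
In Nfkbia the match ended 20 bases before the start, in Tnfaip3 3 bases and in Nfkb2 2 bases before it, and in Rel it began 91 bases before it. Nfkb2 held a further match near its other starts, in the window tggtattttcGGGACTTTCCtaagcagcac (chr19:46305695-46305724). Other spellings of kB sites were not searched, and a match does not show that a factor binds.

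The levels of the 47 genes differed widely. Measured per kilobase of exon, Lat was at the top with a mean of 1432 CPM per kilobase over the 4 libraries, followed by Lck at 1057, Cd3g at 744 and Cd3e at 604. The phosphatase gene Ptprc (576), the NF-kB inhibitor gene Nfkbia (574), the surface receptor gene Cd6 (533) and Dgka (359) were also high on this scale. The transcription factors were lower, from 77.0 CPM per kilobase for Rela to 34.6 for Nfatc1 and 4.15 for Nfatc2. Orai1 and Sos1 were at the bottom, at 1.69 and 1.15. Neighbours in this order often overlapped between libraries, as Cd3e, Ptprc and Nfkbia did, and the exon lengths are those of GENCODE vM1, an older annotation than the one counted.

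**Figure D1:**
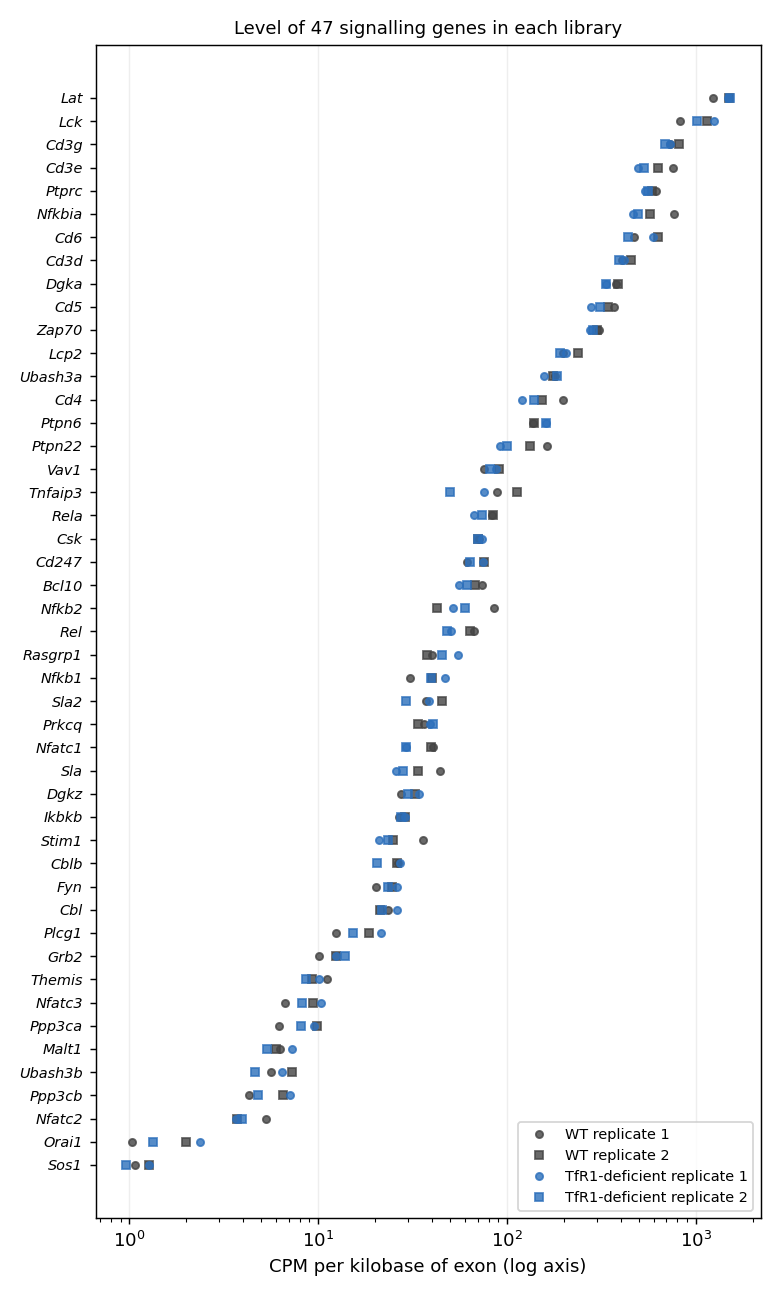
Level of each of the 47 genes in each of the 4 libraries, as CPM per kilobase of exon on a log axis, ordered by the mean, with grey symbols for WT, blue symbols for the TfR1-deficient-labelled libraries, circles for replicate 1 and squares for replicate 2. The mean levels run from 1432 for Lat to 1.15 for Sos1, and for most genes the 4 symbols lie close together.

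The comparison of the genotypes asks which genes depend on TfR1 in Treg cells. Among the 47 signalling genes the differences were small, with 27 log2 fold changes below 0 and 20 above. The phosphatase Ptpn22, the inhibitory adaptor Sla, the NFAT gene Nfatc1, the calcium sensor gene Stim1, the NF-kB genes Rel, Nfkbia and Tnfaip3 and the receptor genes Cd3e and Cd4 had log2 fold changes of -0.41 to -0.68, with both TfR1-deficient-labelled libraries below both WT libraries. Rasgrp1, Ptpn6 and Prkcq were higher without overlap, and 29 genes, all 7 adaptors and proximal effectors among them, overlapped between the genotypes. All 47 genes passed the count filter. None passed edgeR's quasi-likelihood test at an adjusted p-value under 0.05 with a log2 difference of 0.5 or more in size, and of the 12536 genes tested 0% did. DESeq2 also called 0 of the 47, against 0.238% of its tested genes as lower and 0.0510% as higher. The adjusted p-values of the 47 lay between 0.911 and 0.997.

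With the threshold of 0.05 applied to edgeR's p-value before adjustment and a log2 difference of 0.5 or more, Ptpn22, Sla and Tnfaip3 counted as lower, 3 genes or 6.38% of the 47, against 2.48% of all genes tested. None was higher, against 1.60% of all genes. With no minimum change there were 6 lower genes (Cd3e, Ptpn22, Sla, Nfatc1, Rel and Tnfaip3), or 12.8% against 3.34%, and 0 higher against 1.88%. These counts moved with single libraries: the 3 became 7 when WT replicate 2 was left out, and 1 when WT replicate 1, TfR1-deficient replicate 1 or TfR1-deficient replicate 2 was. In 15 of the 47 (31.9%) both TfR1-deficient-labelled libraries were below both WT libraries, against 18.9% of all genes, and in 3 (6.38%) both were above, against 16.0%. For 1 gene, exact permutation of 2 against 2 libraries cannot give a p under 0.333. The median log2 fold change of the 47 was -0.09, with quartiles of -0.27 and 0.13, while the median of all genes was 0.01, and the members' median was close to 0 when WT replicate 2 (-0.01) or TfR1-deficient replicate 2 (-0.00065) was left out.

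**Figure D2:**
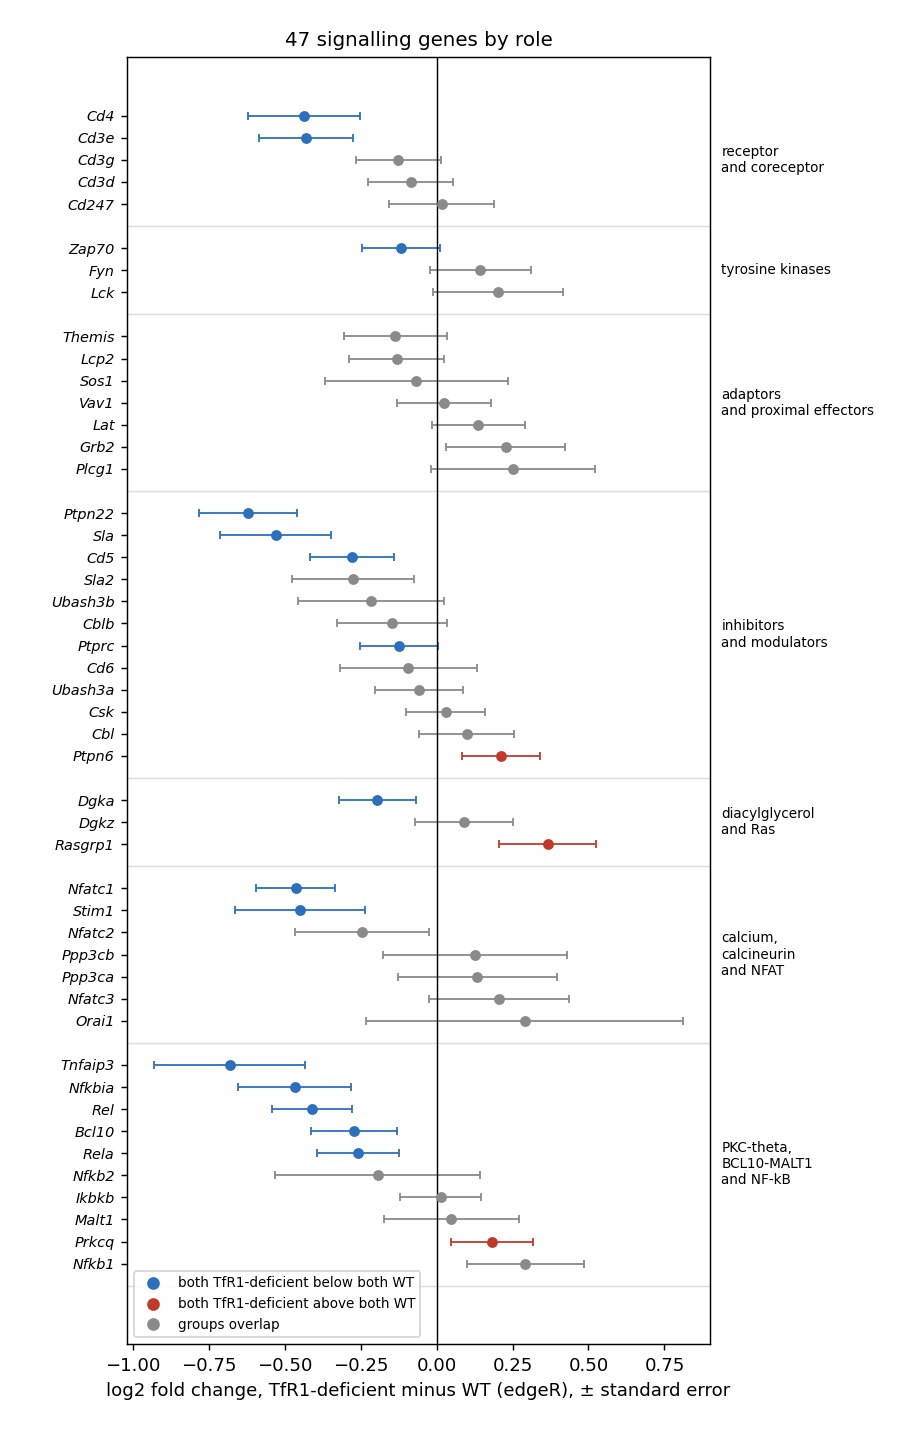
Log2 fold change of each of the 47 genes, TfR1-deficient-labelled libraries minus WT, from edgeR with its standard error as a bar, grouped by role, where blue marks the 15 genes in which both TfR1-deficient-labelled libraries lie below both WT libraries, red the 3 in which both lie above, and grey the 29 that overlap. The lowest is Tnfaip3 at -0.68 and the highest Rasgrp1 at 0.37.

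In the receptor group, 4 of the 5 genes had a log2 fold change below 0, against 48.9% of all genes tested. Of the 5, 2 were lower without overlap, against 18.9% of all genes. Whether these genes differed from each other was not tested. Cd3e, a signalling chain present in 2 copies in each receptor complex, was at 1088 and 904 CPM in WT and at 714 and 765 CPM in the TfR1-deficient-labelled libraries. The difference was -0.43 on the log2 scale (standard error 0.16, unadjusted p = 0.038, adjusted p = 0.911, edgeR). Cd4, the coreceptor that brings Lck to the receptor, was at 799.9 and 617 CPM in WT and at 486 and 562 CPM in the others, a log2 difference of -0.44 (standard error 0.18). Neither gene overlapped between the genotypes, and in both WT replicate 1 was the highest library, without which the values were -0.27 for Cd3e and -0.22 for Cd4.

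The other 3 chains overlapped. Cd3d was at 536 and 600.0 CPM in WT and at 554 and 517 CPM in the TfR1-deficient-labelled libraries. Cd3g was at 785 and 877 against 786 and 736 CPM. Cd247, which encodes the zeta chain, was at 329.8 and 405 against 402 and 342 CPM, and its log2 fold change of 0.02 (standard error 0.17) ran from -0.11 to 0.17 as single libraries were left out. In Cd247 the low libraries were WT replicate 1 and TfR1-deficient replicate 2, the ones with the higher macrophage marker counts, and 3005 bases of its exons overlap exons of Pou2f1 on the opposite strand. In bulk RNA, fewer cells of a type and less RNA per cell cannot be told apart for any of these genes.

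For each of the 3 tyrosine kinases the log2 fold change was smaller in size than its standard error. Lck, which starts the phosphorylation cascade, was at 2408 and 3350.4 CPM in WT and at 3646 and 2979 CPM in the TfR1-deficient-labelled libraries (log2 fold change 0.20, standard error 0.22). The value ran from 0.00012 without WT replicate 1 to 0.46 without WT replicate 2. Within each genotype Lck was lower in the library with the higher macrophage marker counts, and it was lowest in WT replicate 1. Zap70, which binds phosphorylated CD3 chains, was at 718 and 696 CPM in WT and 639 and 665 CPM in the others. Its groups did not overlap, but the log2 fold change was only -0.12 (standard error 0.13). Fyn, the second Src-family kinase of T cells, had a log2 fold change of 0.14 (standard error 0.17) with overlapping groups.

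The 7 adaptors and proximal effectors all overlapped between the genotypes, with a median log2 fold change of 0.02 and a range from -0.14 to 0.25. The highest was Plcg1, the phospholipase that splits the signal into calcium and diacylglycerol, at 97.5 and 146 CPM in WT and 169 and 120.2 CPM in the TfR1-deficient-labelled libraries. The lowest was Themis, a T-lineage protein that tunes TCR signal strength in thymocytes, at 101 and 84.2 CPM against 90.9 and 77.6 CPM. Lat, the membrane scaffold, and Lcp2, which encodes Slp-76, had log2 fold changes of 0.14 and -0.13, the exchange factors Vav1 and Sos1 0.02 and -0.07 and the linker Grb2 0.23, with standard errors from 0.15 to 0.30. Only for Grb2 (standard error 0.20) was the log2 fold change larger than its standard error, and its groups overlapped.

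Among the 12 inhibitors and modulators of proximal signalling, 9 had a log2 fold change below 0, with a median of -0.13, and 4 were lower without overlap. Over all genes tested 48.9% were below 0 and 18.9% were lower without overlap. Ptpn22, a tyrosine phosphatase that dephosphorylates Lck and Zap70, was at 499.8 and 409 CPM in WT and at 283 and 308 CPM in the TfR1-deficient-labelled libraries. The difference was -0.62 on the log2 scale (standard error 0.16, unadjusted p = 0.011, adjusted p = 0.911, edgeR; adjusted p = 0.352, DESeq2), the lowest unadjusted edgeR p among the 47. The WT libraries were well above the others, and the value, as libraries were left out one at a time, stayed between -0.76 and -0.45.

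Sla encodes SLAP, an adaptor that recruits the ubiquitin ligase Cbl and lowers the amount of TCR at the surface. It was at 408 and 310.4 CPM in WT and at 238 and 259 CPM in the TfR1-deficient-labelled libraries, a log2 difference of -0.53 (standard error 0.18, unadjusted p = 0.032, adjusted p = 0.911, edgeR). The groups did not overlap, and the value ran from -0.72 to -0.30, with the smallest difference once WT replicate 1 was left out. Its relative Sla2 overlapped between the genotypes, at a log2 fold change of -0.28 (standard error 0.20).

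Cd5, a surface inhibitor whose level follows TCR signal strength, was at 766 and 713 CPM in WT and 578 and 640.3 CPM in the TfR1-deficient-labelled libraries, a log2 difference of -0.28 (standard error 0.14). Ptprc, the phosphatase CD45 that keeps Lck ready for activation, also lay lower without overlap, by a smaller margin (log2 fold change -0.12, standard error 0.13). One gene of the group was higher without overlap: Ptpn6, the phosphatase SHP1, at 387 and 392 CPM in WT and at 450.4 and 453 CPM in the others, a log2 difference of 0.21 (standard error 0.13). Its replicates were close, and the value stayed between 0.21 and 0.25 with each library left out. The ubiquitin ligases Cbl and Cblb, the inhibitory kinase Csk, the related regulators Ubash3a and Ubash3b and the surface receptor Cd6 overlapped, with log2 fold changes from -0.22 to 0.10.

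The diacylglycerol branch held the highest log2 fold change of the 47. Rasgrp1, the exchange factor that activates Ras in response to diacylglycerol, was at 224 and 212 CPM in WT and at 309 and 253 CPM in the TfR1-deficient-labelled libraries, a log2 difference of 0.37 (standard error 0.16, unadjusted p = 0.068, adjusted p = 0.911, edgeR). The groups did not overlap, and TfR1-deficient replicate 1 was the highest, so that the value was 0.25 without it. Dgka, a kinase that removes diacylglycerol, was at 1061 and 1091 CPM in WT and at 936 and 944 CPM in the others. Its log2 fold change of -0.19 (standard error 0.13) was small, but replicates were closer to each other than to the other genotype. Dgkz, the other such kinase of T cells, overlapped (0.09, standard error 0.16).

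In the calcium branch the largest difference was that of Nfatc1, a transcription factor that NFAT itself induces after TCR stimulation. It was at 303 and 293 CPM in WT and at 216 and 216 CPM in the TfR1-deficient-labelled libraries, a log2 difference of -0.46 (standard error 0.13, unadjusted p = 0.015, adjusted p = 0.911, edgeR). The replicates of each genotype were nearly equal, and the value stayed between -0.49 and -0.42 with each library left out. Stim1, the calcium sensor of the endoplasmic reticulum, was at 129 and 90.1 CPM in WT and 75.7 and 84.8 CPM in the others, and the log2 difference was -0.45 (standard error 0.21). WT replicate 1 stood above the other 3 libraries, and without it the value was -0.15.

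The other calcium genes overlapped. Orai1, the channel that Stim1 opens, had 29 to 94 counts in a library and was at 2.37 and 4.59 CPM in WT and 5.42 and 3.07 CPM in the TfR1-deficient-labelled libraries. Its log2 fold change of 0.29 had a standard error of 0.52 and turned negative without WT replicate 1 or without TfR1-deficient replicate 1. Ppp3ca and Ppp3cb, which encode catalytic subunits of calcineurin, were both at 0.13, Nfatc3 at 0.21 and Nfatc2 at -0.25, with standard errors from 0.22 to 0.30. In Orai1, Ppp3ca, Ppp3cb and Nfatc3, WT replicate 1 was the lowest of the 4 libraries.

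Among the 10 genes of the protein kinase C-theta, BCL10-MALT1 and NF-kB step, 5 were lower without overlap and 1 was higher, with a median log2 fold change of -0.23, against 18.9% and 16.0% of all genes without overlap. Tnfaip3, the ubiquitin-editing enzyme that ends NF-kB signalling, was at 637 and 816 CPM in WT and at 544 and 362 CPM in the TfR1-deficient-labelled libraries. The difference was -0.68 on the log2 scale (standard error 0.25, unadjusted p = 0.040, adjusted p = 0.911, edgeR), the lowest of the 47. The replicates of each genotype differed widely, and the value ran from -0.97 (TfR1-deficient replicate 1 left out) to -0.42 (TfR1-deficient replicate 2 left out). Within each genotype the library with the higher macrophage marker counts was the lower one for Tnfaip3. Whether those cells bear on this difference was not tested.

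Nfkbia encodes IkB-alpha, which holds NF-kB in the cytoplasm and is made anew once NF-kB is active. It was at 1204 and 898 CPM in WT and at 738 and 783 CPM in the TfR1-deficient-labelled libraries, a log2 difference of -0.47 (standard error 0.19, unadjusted p = 0.051, adjusted p = 0.911, edgeR). WT replicate 1 was the highest, and without it the value was -0.22. Rel, which encodes c-Rel, was at 188 and 179 CPM in WT and at 141 and 135 CPM in the others, a log2 difference of -0.41 (standard error 0.13, unadjusted p = 0.025, adjusted p = 0.911, edgeR). In Rel the replicates were close and the value stayed between -0.45 and -0.36. Of the 4 genes whose kB-containing promoters are printed above, Nfkbia, Rel and Tnfaip3 lay lower without overlap and Nfkb2 did not. Over all genes tested 18.9% were lower without overlap. Bcl10 and Rela, whose promoters held no match, were also lower without overlap. Nfkb1, Malt1 and Ikbkb, whose groups overlapped, had no promoter to search, so they are outside this comparison. Whether the motif bears on these levels was not tested.

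Nfkb2 was at 279.5 and 141 CPM in WT and at 170.2 and 197 CPM in the TfR1-deficient-labelled libraries, a log2 difference of -0.19 (standard error 0.34). The WT libraries lay on either side of the others, the value ran from -0.61 without WT replicate 2 to 0.40 without WT replicate 1, and within each genotype the library with the higher macrophage marker counts was the higher one for Nfkb2. The part of those cells in its level was not tested.

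Rela, the most abundant NF-kB subunit gene per kilobase here, and Bcl10, the adaptor that binds Malt1, were lower without overlap, with log2 fold changes of -0.26 (standard error 0.14) and -0.27 (standard error 0.14). Prkcq, which encodes protein kinase C-theta, was the gene of this step that was higher without overlap, at 241 and 222 CPM in WT and 257 and 268 CPM in the TfR1-deficient-labelled libraries (log2 fold change 0.18, standard error 0.13). Nfkb1 had the highest log2 fold change of the step, 0.29 (standard error 0.19), at 146 and 192 against 224 and 189.9 CPM, with overlapping groups. Malt1 and Ikbkb, a catalytic IkB kinase subunit, were at 0.05 and 0.01.

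**Figure D3:**
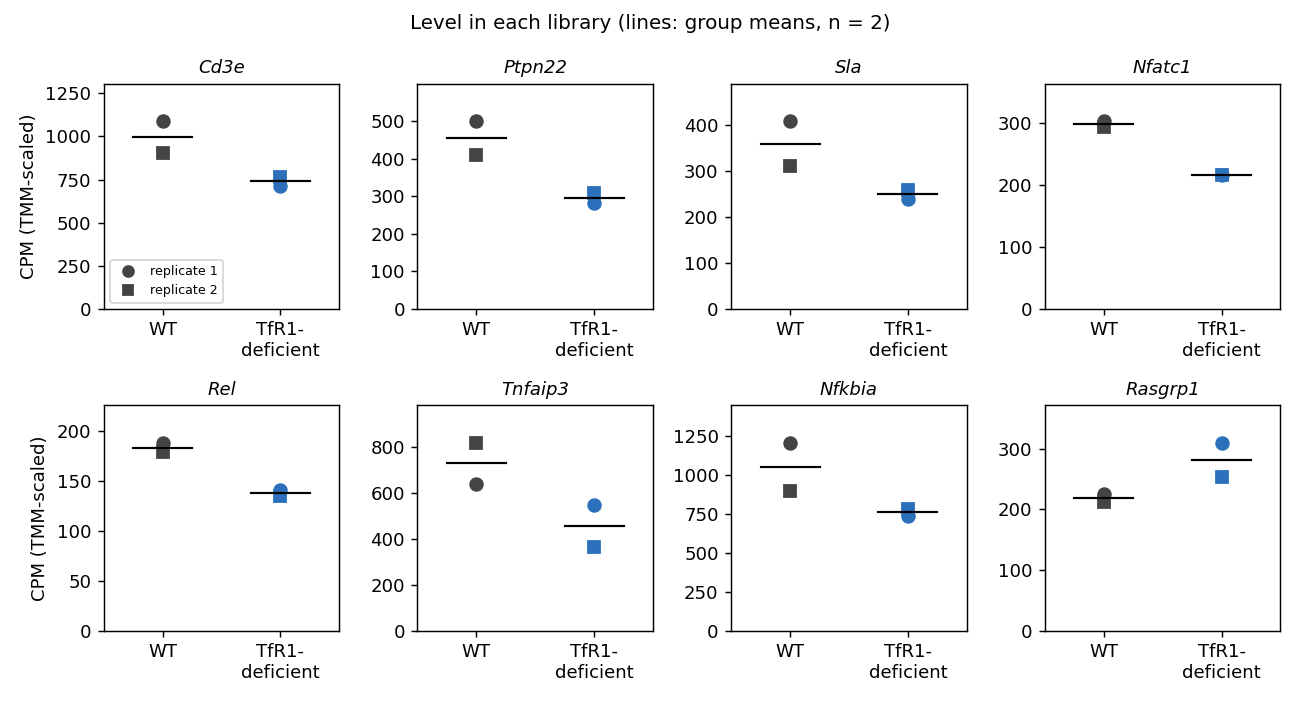
CPM of 8 genes in each library, with circles for replicate 1, squares for replicate 2 and a line at the mean of each genotype (n = 2). In Cd3e, Ptpn22, Sla, Nfatc1, Rel, Tnfaip3 and Nfkbia both TfR1-deficient-labelled libraries lie below both WT libraries, and in Rasgrp1 both lie above.

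Because macrophage marker counts divided the libraries within each genotype, the genes were also compared in separate pairs of libraries, those with low and those with higher marker counts, as ratios of CPM + 0.5 with no test. The second pair was not matched, since its summed macrophage markers were at 3603 CPM in the TfR1-deficient-labelled library and at 1224 CPM in WT. Between TfR1-deficient replicate 1 and WT replicate 2, the libraries with low macrophage marker counts, the median log2 ratio of the 47 genes was -0.04, against 0.01 for all genes tested. Between TfR1-deficient replicate 2 and WT replicate 1 it was -0.10, against -0.0042. In 22 genes (46.8%) both ratios were below 0 and in 11 (23.4%) both were above, against 31.0% and 31.6% of all genes. Genes whose groups do not overlap must have both ratios on one side. The lower genes listed next were also picked for their fitted change in these same libraries. Neither the signs nor the sizes of their ratios are therefore separate support.

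In the comparison with low macrophage marker counts, Tnfaip3 had a log2 ratio of -0.58, Ptpn22 -0.53, Nfatc1 -0.44, Sla -0.38, Rel -0.34, Cd3e -0.34, Cd4 -0.34, Nfkbia -0.28 and Stim1 -0.25. In the other comparison the same genes were at -0.81, -0.70, -0.49, -0.65, -0.48, -0.51, -0.51, -0.62 and -0.60, larger for each of the 9. Rasgrp1 was the reverse, at 0.54 in the first and 0.17 in the second. Nfkb2 changed sign, at 0.27 in the first and -0.50 in the second.

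**Figure D4:**
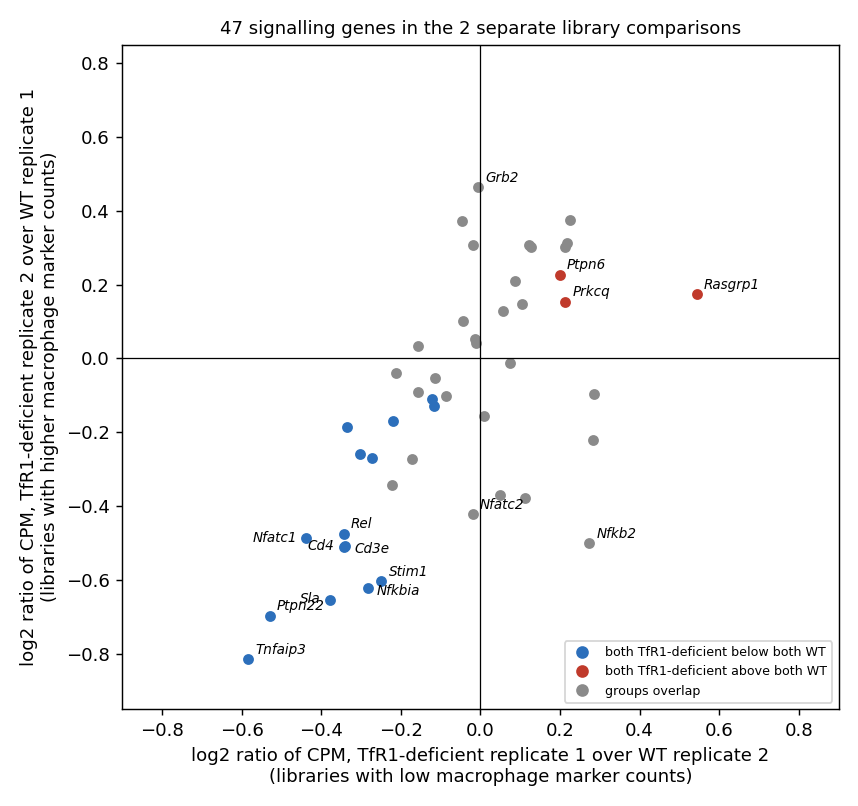
Log2 ratio of CPM + 0.5 for each of the 47 genes, between TfR1-deficient replicate 1 and WT replicate 2 (horizontal axis) and between TfR1-deficient replicate 2 and WT replicate 1 (vertical axis), which share no library, with colours as in the plot of fold changes by role. Non-overlapping genes fall in the lower left or upper right by construction, Tnfaip3 and Ptpn22 lie farthest to the lower left, Rasgrp1 farthest to the right and Nfkb2 in the lower right.

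A second list of 70 further genes of the same pathway was examined in the same fit, of which 69 passed the count filter, all but Rnf128. The median log2 fold change was -0.01 and 0 genes passed the adjusted threshold in edgeR or in DESeq2. At an unadjusted p-value under 0.05 and a change of at least 0.5, 5 genes (7.25%) were lower and 0 higher in edgeR, against 2.48% and 1.60% of all genes, and 20 (29.0%) were lower and 9 (13.0%) higher without overlap, against 18.9% and 16.0%. The 5 lower genes became 2 when either WT replicate 1 or TfR1-deficient replicate 2 was left out.

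Those 5 genes were adaptors, a calcium channel and a deubiquitinase. Lax1, a membrane adaptor that inhibits lymphocyte signalling, was at 93.7 and 93.5 CPM in WT and at 56.8 and 55.6 CPM in the TfR1-deficient-labelled libraries, a log2 difference of -0.74 (standard error 0.13, unadjusted p = 0.0023, adjusted p = 0.911, edgeR; adjusted p = 0.101, DESeq2). Grap2, the adaptor Gads that joins Lat to Slp-76, was at 88.1 and 86.7 against 59.9 and 61.3 CPM. In both genes the replicates were almost equal and the genotypes well apart.

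Wipf1, a partner of the actin regulator WASP, differed by -0.69 on the log2 scale (standard error 0.20) and Orai2, a relative of Orai1, by -0.58 (standard error 0.16). Cyld, which removes ubiquitin chains in the NF-kB pathway as Tnfaip3 does, was at 251 and 269 CPM in WT and 203 and 149 CPM in the others, a log2 difference of -0.56 (standard error 0.19). The IkB kinase subunits Chuk and Ikbkg and the subunit gene Relb overlapped, at 0.31, 0.08 and 0.18 with standard errors of 0.24, 0.30 and 0.34. The TCR constant region genes Trac, Trbc1 and Trbc2 also overlapped, with log2 fold changes from -0.15 to -0.09.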

How the data were processed

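The authors sorted CD25+YFP+ Treg cells, made NEBNext Single Cell/Low Input libraries and deposited whole-number read counts per Ensembl gene, neither normalized nor pooled. The submitters' processing notes name Trim Galore 0.6.7, STAR 2.7.9a, featureCounts and mm10, while the paper's methods name mm9. GENCODE vM1, an mm9 annotation, gave the symbols and exon lengths, and 14889 identifiers are later than its last one. Strand and the treatment of multi-mapping reads are not given in the sources used here. Exons of 11 of the 47 genes overlap those of another gene in vM1.

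Counts of 10841939 to 17278448 per library were filtered with filterByExpr (12536 genes), scaled by TMM and tested for genotype by edgeR 4.0.16 (quasi-likelihood, R 4.3.3), with Benjamini-Hochberg adjustment over all genes. The spread between replicates limited the precision, and the common biological coefficient of variation was 0.323. A standard error is the log2 difference over the square root of F. Replicates differed beyond counting noise (chi-square per degree of freedom 32.3 in WT and 51.7 in TfR1-deficient), so none was merged. DESeq2 1.42.0, other scalings, filters and minimum changes, a replicate block, separate library pairs and the omission of each library were the alternatives.

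The fit was tested on simulated data, at the adjusted threshold. There edgeR recovered 10 of 69 genes with a true log2 change of 1, 36 of 74 with 2 and 42 of 51 with 3. It also called 26 of 11986 unchanged genes. Changes as small as those of the signalling genes were not simulated, so the absence of adjusted calls says little about them. The members, lists and rules were chosen with earlier results of these data known. Values in every library are given for the receptor group, genes with an unadjusted p < 0.05, and the extremes of each role group. Chuk, Ikbkg, Relb and the genes past 0.05 unadjusted and 0.5 in size are named from the wider list, and some other genes that the rule covers are not reported here. Values in every library for Cd5, Stim1, Nfkbia, Nfkb2 and Prkcq, and the naming of Ctla4, Trac, Trbc1 and Trbc2, were chosen after values were seen.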

Additional observations from a re-analysis of the deposited data

How the results depend on the processing

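The numbers of calls depended on the test and the filter. Over all genes, edgeR's adjusted p-value gave 0 higher and 0 lower calls (200 and 311 without adjustment), DESeq2 called 6 higher and 28 lower, and edgeR with no count filter called 167 and 95, with 650 higher without adjustment. A minimum log2 change of 1 left 91 higher and 104 lower genes without adjustment, as fewer changes are that large. Of the 47 signalling genes, no setting without a pairing gave an adjusted call; the 3 lower without adjustment became 6 with no minimum change and 0 with a minimum of 1. Of the wider list, edgeR with no count filter called 2 lower (Lax1 and Wipf1) at the adjusted p-value, and a minimum of 1 left 0 of the 5 lower without adjustment. The cause of the other differences was not tested.

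Same-numbered libraries had a correlation of -0.61 in their deviations from the group means. They also lay on opposite sides of the split in macrophage marker counts. The correlation therefore cannot show whether the replicate numbers mark pairs, which the sources used here do not state. With the replicate block there were 70 higher and 141 lower genes without adjustment, 0 lower signalling genes and 2 lower genes of the wider list, and it changed no adjusted call. Crossing the replicate numbers, an alternative chosen after seeing the data, gave 150 higher and 210 lower genes at the adjusted p-value (596 and 519 without), of which 3 lower ones are among the 47 signalling genes and 5 lower ones in the wider list, so that the count of 0 adjusted calls depends on this choice, and 1 gene of the wider list was higher without adjustment.

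With single libraries left out and no adjustment, higher genes ran up to 353 (without TfR1-deficient replicate 1) and down to 169, lower genes from 131 (without WT replicate 1) to 382, lower signalling genes from 1 to 7, and the wider list from 0 to 2 higher and 2 to 5 lower. The median of the signalling genes, -0.09, ran from -0.15 to -0.00065. The median of the tyrosine kinases, 0.14, ran from 0.00012 to 0.29 and was 0.18 with total library size only, 0.087 between the libraries with low macrophage marker counts and 0.21 between the other pair. That of the calcium, calcineurin and NFAT genes, 0.13, ran from -0.15 to 0.45, and that of the protein kinase C-theta, BCL10-MALT1 and NF-kB genes, -0.23, from -0.32 to -0.11. Of the named genes, Cd247 ran from -0.11 to 0.17, Ikbkg from -0.29 to 0.38, Orai1 from -0.15 to 0.83, Relb from -0.32 to 0.56, Nfkb2 from -0.61 to 0.40 and Themis from -0.27 to 0.019 (and 0.11 between the libraries with low macrophage marker counts). As single libraries were left out, the sign also changed for Malt1 (-0.16 to 0.25), Ppp3ca (-0.14 to 0.50), Ppp3cb (-0.15 to 0.45) and Cd6 (-0.29 to 0.13). It did so too for Cblb, Nfatc2, Nfatc3, Sos1, Ubash3a, Vav1, Ikbkb, Lcp2 and Dgkz. No other scaling, filter, tool or block turned the direction of a named gene.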
